A study of Homo sapiens with 8 samples.

Results

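Cells take up iron, store it, release it from store and sense how much they hold, and 10 human genes of these steps, out of 63677 genes in the deposited count tables, are described here. They were chosen by symbol for their role: TFRC and SLC11A2 for uptake, FTH1 and FTL for storage, SLC40A1 for export, ACO1, IREB2 and FBXL5 for sensing, and NCOA4 and HMOX1 for release. Their transcripts were measured by strand-specific RNA sequencing with paired reads of 100 bases in MOLT-4 and DND-41, both long-established human cell lines from T-cell acute lymphoblastic leukaemia. The 4 groups, of 2 libraries each, were MOLT-4 with 100 nM ACBI-1, MOLT-4 with the solvent DMSO, DND-41 with 100 nM ACBI-1 and DND-41 with DMSO, all harvested at 24 h from medium with serum. ACBI-1 is a degrader: it links the bromodomains of SMARCA2, SMARCA4 and PBRM1, subunits of chromatin remodelling complexes, to the ubiquitin ligase VHL. No other allele or agent was named for any group, and each line derives from a single leukaemia.

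Transferrin-bound iron enters a cell through the transferrin receptor, leaves the endosome through a divalent metal transporter, and is either used in haem and iron-sulphur clusters or laid down in the ferritin shell. The RNA-binding proteins encoded by ACO1 and IREB2 grip a short hairpin, the iron-responsive element, when iron is scarce. A hairpin in a 5′ untranslated region then blocks translation, as in ferritin, and hairpins in a 3′ untranslated region protect the transcript from decay, as in TFRC. Proliferating T-lineage cells are known for a high surface level of the transferrin receptor.

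The hairpins are shown because the 2 regulatory proteins act through hairpins of this kind, but the letters alone do not identify the transcripts they act on. They were searched over whole protein-coding transcripts of GENCODE 29 (GRCh38) on the sense strand as CNNNNNCAGNGNNNNNN, with the 5 bases on either side of the loop CAGNGN able to pair, G with T included. The capitals mark the unpaired C and the loop. Such a hairpin was found in 4 of the 10 genes, 8 hairpins in all, and in 1017 of 19702 protein-coding genes (5.16%). TFRC-201, on the minus strand of chromosome 3, holds 5 in its 3′ untranslated region, at chr3:196051029-196051057, chr3:196050979-196051007, chr3:196050575-196050603, chr3:196050510-196050538 and chr3:196050463-196050491 in that order.
TFRC hairpin 1: atttatCagtgaCAGAGTtcactataaat
TFRC hairpin 2: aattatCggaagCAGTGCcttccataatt
TFRC hairpin 3: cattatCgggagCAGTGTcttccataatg
TFRC hairpin 4: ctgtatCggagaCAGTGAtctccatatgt
TFRC hairpin 5: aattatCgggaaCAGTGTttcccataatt

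The other 3 genes hold 1 hairpin each, in the 5′ untranslated region. It lies at chr11:61967574-61967602 on the minus strand in FTH1-201, at chr19:48965335-48965363 on the plus strand in FTL-201 and at chr2:189580661-189580689 on the minus strand in SLC40A1-201. For SLC40A1 only 1 of 5 coding transcripts carries it, against 7 of 8 for FTH1, 3 of 4 for TFRC and 1 of 1 for FTL. The counts are per gene, so they do not separate transcripts with the hairpin from those without.
FTH1 hairpin: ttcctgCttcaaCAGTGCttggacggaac
FTL hairpin: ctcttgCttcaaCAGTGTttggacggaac
SLC40A1 hairpin: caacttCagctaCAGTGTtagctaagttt
This form was not found in the coding transcripts of SLC11A2, ACO1, IREB2, FBXL5, NCOA4 or HMOX1. A hairpin whose stem pairs in another way would be missed, so these genes may still carry one. A match is a description of the letters, not of binding.

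Library totals were 21308737 to 22067644 counts, and 21636 to 23243 genes had a count in a library. The 13 T-lineage markers examined summed to 2727 to 3763 CPM (counts scaled to a common TMM-adjusted library total) in every library, while 10 macrophage markers summed to at most 0.554 CPM. The T-lineage sum hides moves of single markers in MOLT-4, where 4 of the 13 were higher and 8 lower with ACBI-1 (median log2 fold change −0.52, edgeR). Over all genes tested 28.2% were higher and 30.2% lower. The surface antigens CD7, CD2 and CD1A averaged 23.3, 24.7 and 49.8 CPM with ACBI-1 against 145, 93.8 and 164 CPM with DMSO, at −2.63, −1.92 and −1.71 (edgeR adjusted p = 3.27e-34, 6.96e-30 and 1.95e-31). CD3G, a chain of the T-cell receptor complex, averaged 456 CPM with ACBI-1 against 294 CPM with DMSO (0.64, edgeR adjusted p = 2.72e-19). The part of these moves in the iron gene results was not tested. Of 13 erythroid markers, EPOR alone reached 1 CPM in any group. In MOLT-4 the erythroid sum was 10.9 to 11.7 CPM with ACBI-1 and 7.13 to 7.30 CPM with DMSO, nearly all of it EPOR, and HBA2, HBB, HBG1, HBD, SLC4A1 and AHSP were at 0 counts in all 8 libraries. ACBI-1 acts on proteins, so the transcripts of its targets do not check the labels: SMARCA2 averaged 26.8 CPM with ACBI-1 and 28.1 CPM with DMSO in MOLT-4, and SMARCA4 738 and 617 CPM. In DND-41 the libraries grouped by replicate number rather than by the treatment in their names. Those of the same number differed by 5.49 and 5.09 times the counting noise (chi-square per degree of freedom), and the remaining pairs by 63.2 to 75.5. In MOLT-4 the ACBI-1 pair differed by 2.65 and the DMSO pair by 1.52, while pairs across treatments differed by 49.4 to 50.8. The authors' deposited DND-41 table matched, within 0.001, the libraries numbered 2 over those numbered 1 in all 27069 genes compared, and matched the labelled treatments in 41 of them. No label says which is right, so DND-41 is given as labelled and, apart from that, as deposited, where the direction could not be checked. The deposited DND-41 table lists 5 of 12 T-lineage markers higher and 3 lower, beside 15.2% and 21.6% of all genes. CD7 had 214 and 252 CPM in the DND-41 libraries numbered 2 against 1251 and 1228 CPM in those numbered 1. The labels do not say whether replicates were separate cultures, so the p-values rest on a spread that may be purely technical.

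In MOLT-4 the transferrin receptor, both ferritin subunits and the ferritin autophagy receptor all fell with ACBI-1. TFRC was lower by 56%, FTH1 and FTL by 41% and 38%, and NCOA4 by 36%, while the other 5 genes that could be tested moved by 20% or less. Of those 9 genes, 8 passed the test, 1 higher and 7 lower (edgeR quasi-likelihood F-test, Benjamini-Hochberg adjusted over 14618 genes, threshold 0.05). Over all genes 58.4% passed, 28.2% higher and 30.2% lower, so a call as such was common in this comparison. The median log2 fold change was −0.32 over the 9 genes and 0.0087 over all genes tested. The authors' deposited MOLT-4 table also lists 1 of the 9 higher and 7 lower, beside 35.1% of 16234 genes (14.7% higher, 20.3% lower). HMOX1 had too few counts to be tested.

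**Figure D1:**
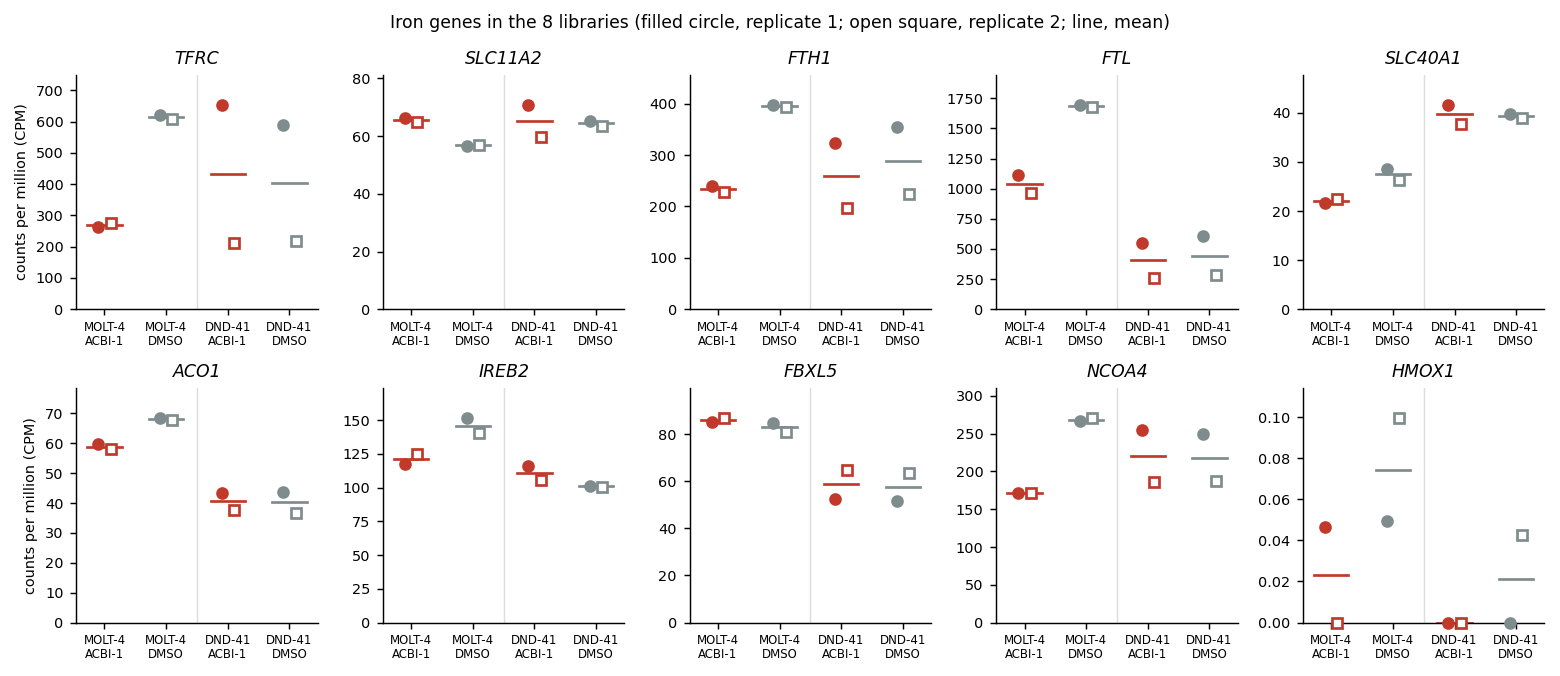
Level of each of the 10 iron genes in CPM (vertical axes from 0) in the 2 libraries of each group, with circles for replicate 1, squares for replicate 2 and a line at their mean. In MOLT-4 the ACBI-1 libraries of TFRC (264 and 276 CPM) sit far below the DMSO libraries (622 and 609 CPM), while in DND-41 the points split by replicate number. HMOX1 stays below 0.1 CPM throughout.

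TFRC (ENSG00000072274) encodes transferrin receptor 1, which carries transferrin-bound iron into the cell. It had 264 and 276 CPM in the MOLT-4 libraries with ACBI-1, against 622 and 609 CPM with DMSO. The groups lay far apart, and the libraries within a group differed little. The log2 fold change was −1.19 (SE 0.036, edgeR adjusted p = 2.79e-29). Of all genes tested, 3.69% fell as much or more. Bulk libraries do not tell fewer expressing cells from less RNA per cell, here or for the genes below.

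SLC11A2 (ENSG00000110911), the divalent metal transporter that moves iron out of the endosome, was the 1 gene to rise. It had 66.1 and 64.8 CPM with ACBI-1, against 56.5 and 57.1 CPM with DMSO. The groups did not overlap, and the log2 fold change was 0.21 (SE 0.0514, edgeR adjusted p = 0.000594). Both genes of the uptake step thus passed the test in opposite directions, with a larger change in TFRC.

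FTH1 (ENSG00000167996) encodes the heavy ferritin chain, which oxidises iron so that it can be stored. It had 240 and 228 CPM with ACBI-1, against 397 and 393 CPM with DMSO. The log2 fold change was −0.75 (SE 0.0364, edgeR adjusted p = 7.61e-22). FTL (ENSG00000087086), the light chain that helps the iron core form, had 1114 and 967 CPM with ACBI-1, against 1693 and 1681 CPM with DMSO. Its log2 fold change was −0.70 (SE 0.0409, edgeR adjusted p = 7.37e-19). Neither chain overlapped between the groups. Reads of near-identical ferritin pseudogenes can be shared with the parents, but 29 FTH1 pseudogenes held 0.64% of FTH1's counts and 16 FTL pseudogenes 0.213% of FTL's. FTLP3 (293 counts over the 8 libraries) and FTH1P23 (61 counts) held the most.

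NCOA4 (ENSG00000138293) encodes the receptor that hands ferritin to autophagosomes, from which its iron is released. It had 172 and 172 CPM with ACBI-1, against 267 and 270 CPM with DMSO. The libraries of a group almost coincided, and the log2 fold change was −0.64 (SE 0.037, edgeR adjusted p = 3.68e-19). HMOX1, haem oxygenase 1, which frees iron from haem, had 1 and 0 counts with ACBI-1 and 1 and 2 counts with DMSO in MOLT-4, and 0 and 0 counts with ACBI-1 and 0 and 1 counts with DMSO in DND-41. All 8 libraries lie under the limit of 3 counts, which amounts to 0.136 to 0.141 CPM in a library, so no fold change can be given at this depth and the gene was not detectable beyond single counts.

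SLC40A1 (ENSG00000138449), or ferroportin, is the known cellular exporter of iron. It had 21.6 and 22.4 CPM with ACBI-1 in MOLT-4, against 28.6 and 26.4 CPM with DMSO. The groups did not overlap, and the log2 fold change was −0.32 (SE 0.0732, edgeR adjusted p = 0.000246). At 465 to 578 counts per library it was the least counted of the genes that were tested.

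Among the sensors, the transcripts of both hairpin-binding proteins fell by little. IREB2 (ENSG00000136381), iron regulatory protein 2, had 117 and 125 CPM with ACBI-1, against 151 and 140 CPM with DMSO (log2 fold change −0.26, SE 0.0434, edgeR adjusted p = 1.38e-06). ACO1 (ENSG00000122729), whose protein is iron regulatory protein 1 without its iron-sulphur cluster and cytosolic aconitase with it, had 59.7 and 58.1 CPM with ACBI-1, against 68.3 and 67.8 CPM with DMSO (log2 fold change −0.21, SE 0.0508, edgeR adjusted p = 0.000536). In neither gene did the groups overlap. FBXL5 (ENSG00000118564) encodes the iron-binding subunit of the ubiquitin ligase that removes IREB2. It had 85.3 and 86.6 CPM with ACBI-1, against 84.8 and 80.9 CPM with DMSO, and did not pass the test (log2 fold change 0.06, SE 0.0467, edgeR adjusted p = 0.312). Its libraries did not overlap, as in all 9 genes tested, but that held for 77.7% of all genes. FAM200B, on the opposite strand, shares 18 exon bases with FBXL5 and held 25.1% as many counts, and BEST1 opposite FTH1 held 0.0894% as many as FTH1.

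These small changes depend on the scaling. With total counts in place of TMM the median over all genes moves up by 0.119 on the log2 scale, and the calls over all genes become 5804 higher and 3031 lower, against 4120 and 4413. Of the iron genes 8 still passed in that scaling, 2 higher and 6 lower: ACO1 no longer passed (log2 fold change −0.09, edgeR adjusted p = 0.141), and FBXL5 did (0.18, edgeR adjusted p = 0.00108). TFRC, FTH1, FTL, NCOA4, SLC40A1 and IREB2 stayed lower and SLC11A2 higher. With the spread shared with the DND-41 libraries in 1 fit, none of the iron genes passed, and 544 of 16047 genes did.

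**Figure D2:**
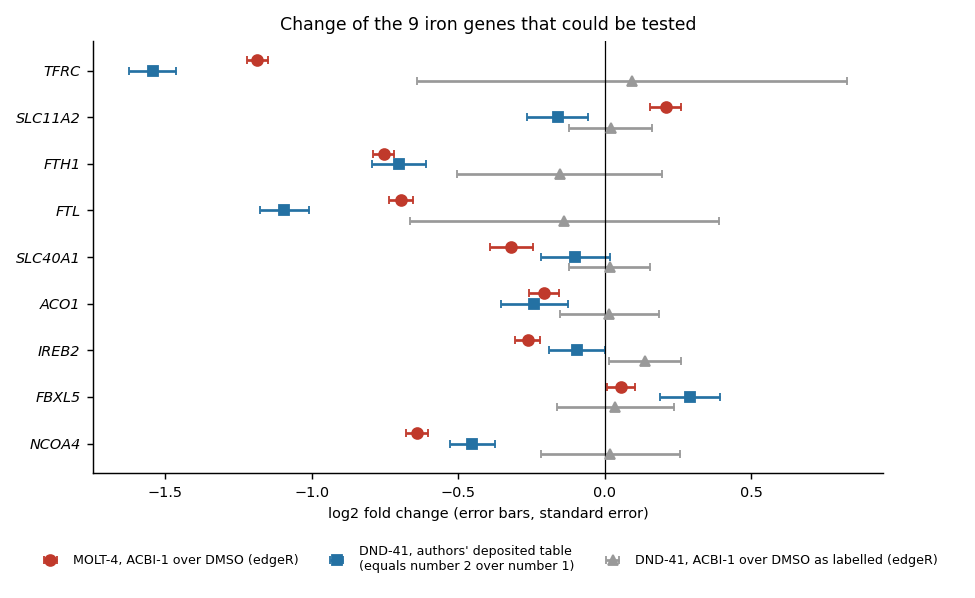
Log2 fold change (horizontal axis) with its standard error for the 9 iron genes that could be tested: ACBI-1 over DMSO in MOLT-4 by edgeR (circles), the authors' deposited DND-41 table, which equals number 2 over number 1 (squares), and ACBI-1 over DMSO in DND-41 as labelled (triangles). TFRC lies at −1.19 in MOLT-4 and −1.54 in the deposited table, and at 0.09 with a standard error of 0.732 as labelled. The edgeR standard errors are derived from the F statistic, and those of the deposited table come from DESeq2.

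In DND-41 as labelled, no iron gene passed the test, and no gene at all did (0 of 14602, 0%). At an unadjusted p under 0.05 edgeR had 0 of the 9 iron genes and 37 of all genes, and DESeq2 called 0 genes after adjustment. TFRC had 652 and 211 CPM in libraries 1 and 2 labelled ACBI-1, against 588 and 219 CPM in libraries 1 and 2 labelled DMSO (log2 fold change 0.09, SE 0.732, edgeR adjusted p = 1.0). FTL had 550 and 261 CPM labelled ACBI-1, against 606 and 286 CPM labelled DMSO (log2 fold change −0.14, SE 0.527, edgeR adjusted p = 1.0). In both genes the labelled groups overlapped over most of their range, and the libraries numbered 2 lay below those numbered 1 under either label. IREB2 was the 1 gene of the 9 whose labelled groups did not overlap, with 116 and 105 CPM labelled ACBI-1 against 101 and 100 CPM labelled DMSO. Its log2 fold change was 0.14 (SE 0.122, edgeR adjusted p = 1.0), and 16.1% of all genes did not overlap. The SEs of TFRC and FTL were 0.732 and 0.527 here, against 0.036 and 0.0409 in MOLT-4.

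The authors' deposited DND-41 table, which is number 2 over number 1, lists 5 of the 9 genes past 0.05, 1 higher and 4 lower, beside 36.8% of the 14883 genes with an adjusted p (15.2% higher, 21.6% lower). TFRC was at −1.54 (SE 0.0798, DESeq2 adjusted p = 1.53e-80 in the authors' deposited table). The libraries behind it were 211 and 219 CPM in those numbered 2 and 652 and 588 CPM in those numbered 1. FTL was at −1.09 (SE 0.0841, adjusted p = 1.27e-36 in the authors' deposited table), with 261 and 286 CPM in number 2 against 550 and 606 CPM in number 1. FTH1 was at −0.70 (SE 0.0908, adjusted p = 2.15e-13 in the authors' deposited table), with 196 and 224 CPM in number 2 against 323 and 354 CPM in number 1. Receptor and storage genes were therefore all lower in the libraries numbered 2.

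NCOA4 was also lower there, at −0.45 (SE 0.0768, adjusted p = 4.42e-08 in the authors' deposited table), with 186 and 187 CPM in number 2 against 255 and 249 CPM in number 1. FBXL5 was higher, at 0.29 (SE 0.103, adjusted p = 0.0153 in the authors' deposited table), with 65.0 and 63.6 CPM in number 2 against 52.5 and 51.6 CPM in number 1. The remaining 4 genes did not pass in that table. They were ACO1 at −0.24 (adjusted p = 0.09), SLC11A2 at −0.16 (0.234), SLC40A1 at −0.10 (0.556) and IREB2 at −0.09 (0.495), all as log2 fold changes of the authors' deposited table. Which treatment each number received is not known from the labels, so these values state a difference between numbered libraries.

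Whether the response differed between the lines was tested as labelled in 1 edgeR fit of the 8 libraries, as the MOLT-4 effect minus the DND-41 effect. It called 0 of the 9 iron genes, and 0.393% of 16047 genes (0.125% higher, 0.268% lower). Unadjusted, IREB2 and NCOA4 had p under 0.05, as did 1611 of all genes (10.0%), and DESeq2 called 0 of the 9 and 2.63% of all genes. The differences were −1.29 (SE 0.841) for TFRC, −0.60 (SE 0.396) for FTH1, −0.66 (SE 0.264) for NCOA4 and −0.40 (SE 0.128) for IREB2 on the log2 scale, with edgeR adjusted p of 0.655, 0.658, 0.479 and 0.36. With the replicate number as a block 8 of the 9 passed (1 higher, 7 lower), as did 36.5% of all genes, but no label pairs the libraries by number. The fit without the block cannot decide the question, because the DND-41 libraries did not group by their labels. Its shared spread also left 0 of the 9 genes called in MOLT-4 itself.

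As labelled, the lines differed in the light ferritin chain and in the iron sensors with DMSO. The DND-41 libraries split by number, so whether both of those labelled DMSO received DMSO could not be checked. FTL averaged 1687 ± 8.98 CPM in MOLT-4 and 446 ± 226 CPM in DND-41 (SD, n = 2 each), and the log2 fold change was 1.92 (SE 0.444, edgeR adjusted p = 0.0155). Of the 9 genes 5 passed in this comparison, 4 higher and 1 lower in MOLT-4, beside 39.5% of all genes (20.1% higher, 19.4% lower). The sensors ACO1, IREB2 and FBXL5 were the other genes higher in MOLT-4. ACO1 averaged 68.1 ± 0.336 CPM in MOLT-4 and 40.3 ± 5.06 CPM in DND-41 (0.76, SE 0.119, edgeR adjusted p = 0.00352). IREB2 averaged 146 ± 7.74 CPM in MOLT-4 and 101 ± 0.736 CPM in DND-41 (0.53, SE 0.0909, edgeR adjusted p = 0.00495). FBXL5 averaged 82.8 ± 2.77 CPM in MOLT-4 and 57.6 ± 8.50 CPM in DND-41 (0.52, SE 0.143, edgeR adjusted p = 0.0279), a call lost with total-count scaling (0.34, adjusted p = 0.177), which moves the median of all genes by −0.18 in this comparison.

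The exporter was the gene lower in MOLT-4: SLC40A1 averaged 27.5 ± 1.60 CPM in MOLT-4 and 39.4 ± 0.64 CPM in DND-41 (−0.52, SE 0.1, edgeR adjusted p = 0.008). TFRC averaged 615 ± 9.61 CPM in MOLT-4 and 403 ± 261 CPM in DND-41, and this did not pass (0.61, SE 0.594, edgeR adjusted p = 0.443). FTH1 (0.45, edgeR adjusted p = 0.241), NCOA4 (0.30, adjusted p = 0.239) and SLC11A2 (−0.18, adjusted p = 0.205) did not pass either, but SLC11A2 passed with total-count scaling (−0.36, adjusted p = 0.0153). In all 9 genes the DMSO libraries of the lines did not overlap, as in 75.2% of all genes tested. Leaving out either MOLT-4 DMSO library brings the 5 calls down to 2, and the share of all genes called to 19.6% (without replicate 1) and 19.7% (without replicate 2). FTL no longer passes in either fit (edgeR adjusted p = 0.0688 and 0.0667), and ACO1 passes in both. The lines came in separate tables, so line and table cannot be told apart. The MOLT-4 column headers also carry the suffix redo, which no label explains.

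**Figure D3:**
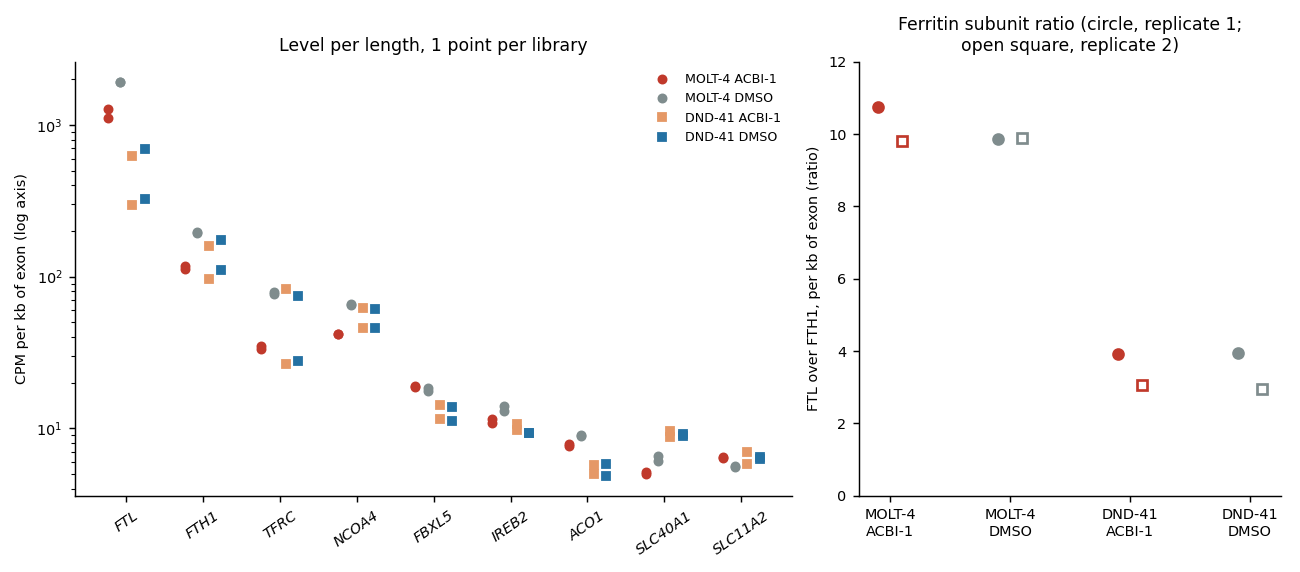
Left, level per kb of exon in CPM (log axis) for 9 iron genes, 1 point per library, ordered by their mean in MOLT-4 with DMSO, with HMOX1 left out as too low. Right, the ratio of FTL to FTH1 per kb in each library. FTL leads in every library. By merged exon length the ratio is 9.82 to 10.7 in MOLT-4 and 2.95 to 3.95 in DND-41. In raw counts it is 4.25 to 4.645 and 1.27 to 1.71.

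Set against the merged exon length of all annotated transcripts, a rough guide for comparing genes, FTL was the most abundant of the 10 genes in every group. FTH1 came next. FTL reached 1185 ± 118 CPM per kb with ACBI-1 and 1922 ± 10.2 CPM per kb with DMSO in MOLT-4, and 462 ± 232 CPM per kb with ACBI-1 and 508 ± 258 CPM per kb with DMSO in DND-41, as labelled (SD, n = 2). FTH1 reached 115 ± 4.25 CPM per kb with ACBI-1 and 195 ± 1.47 CPM per kb with DMSO in MOLT-4. In DND-41 as labelled it reached 128 ± 44.1 CPM per kb with ACBI-1 and 143 ± 45.4 CPM per kb with DMSO. The ratio of the chains per kb was 10.7 and 9.82 with ACBI-1 against 9.86 and 9.89 with DMSO in MOLT-4, which overlap. In DND-41 it was 3.93 and 3.07 in the libraries labelled ACBI-1 against 3.95 and 2.95 in those labelled DMSO, which overlap as well. The size of the ratio depends on the length used. Merged exons span 2030 bases in FTH1 and 878 in FTL, but transcripts FTH1-201 and FTL-201 have 1229 and 878. In raw counts FTL over FTH1 was 4.25 to 4.645 in MOLT-4 and 1.27 to 1.71 in DND-41.

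TFRC and NCOA4 came next in every group. In MOLT-4 they stood in opposite orders: with ACBI-1 NCOA4 (42.1 ± 0.018 CPM per kb) was above TFRC (34.2 ± 1.05 CPM per kb), and with DMSO TFRC (78.0 ± 1.22 CPM per kb) was above NCOA4 (65.8 ± 0.606 CPM per kb). In DND-41 these 2 genes overlapped in both labelled groups. FBXL5 and then IREB2 followed in every group, at 12.6 to 18.8 and 9.33 to 13.5 CPM per kb as group means. By this merged exon length SLC40A1, SLC11A2 and ACO1 lay between 5.09 and 9.17 CPM per kb, with ACO1 first of the 3 in MOLT-4 and last in DND-41. In the full order by merged exon length, the library ranges of neighbours did not overlap except for TFRC and NCOA4 in DND-41. Orders by other lengths were not examined. The 10 genes together took 0.2% to 0.213% of counts with ACBI-1 and 0.306% to 0.308% with DMSO in MOLT-4, and 0.128% to 0.21% in the DND-41 libraries.

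Related gene lists were set beside these genes, and 28.2% of all genes were higher and 30.2% lower in MOLT-4 for reference. With total-count scaling 5804 of all 14618 genes were higher and 3031 lower, with a median log2 fold change of 0.13. Of 23 further genes of iron transport and its regulation 10 could be tested in MOLT-4, of which 2 were higher, 5 lower and 3 did not pass, with a median log2 fold change of −0.14. HFE, which binds the transferrin receptor and takes part in iron sensing, had 7.68 and 6.42 CPM with ACBI-1, against 0.941 and 1.09 CPM with DMSO (log2 fold change 2.79, SE 0.208, edgeR adjusted p = 1.71e-15). In DND-41 HFE had 20.0 and 18.1 CPM in the libraries numbered 2 and 5.54 and 5.34 CPM in those numbered 1 (1.79, adjusted p = 2.80e-18 in the authors' deposited table). SLC39A8 and SLC39A14, metal importers of the ZIP family, were lower in MOLT-4 at −0.51 and −0.21 (edgeR adjusted p = 3.28e-14 and 1.19e-05), and ABCG2, an efflux pump that also carries porphyrins, at −0.86 (edgeR adjusted p = 3.45e-06). Total-count scaling gave 4 higher and 3 lower of the 10. The authors' deposited DND-41 table lists 1 higher and 2 lower of 8, beside 15.2% higher and 21.6% lower of all genes.

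**Figure D4:**
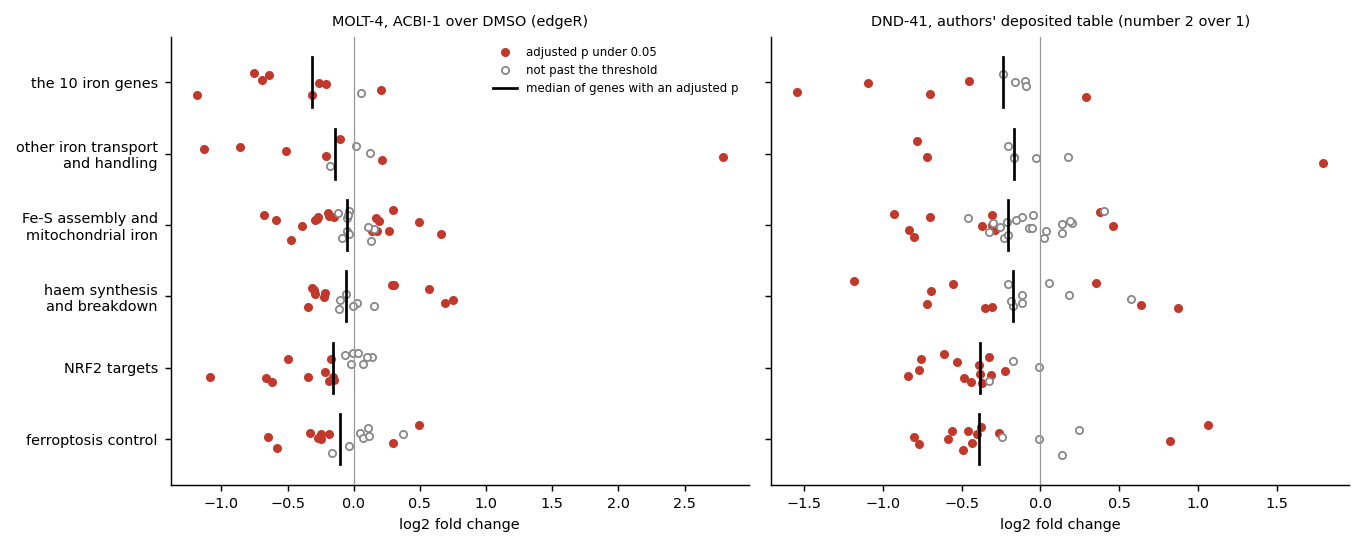
Log2 fold change of each gene (1 point per gene) in the iron genes and 5 related lists, in MOLT-4 with ACBI-1 over DMSO by edgeR (left) and in the authors' deposited DND-41 table (right), with filled points past an adjusted p of 0.05 and a bar at the median. Only genes with an adjusted p are drawn, so HMOX1 is missing. HFE stands far to the right in both panels, at 2.79 and 1.79.

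Iron-sulphur cluster and mitochondrial iron genes split in MOLT-4, with 8 higher, 10 lower and 10 not past the test among 28 tested of 30 (median −0.05). FDXR, which feeds electrons to mitochondrial ferredoxins, was higher at 0.66 (edgeR adjusted p = 1.42e-11). HSPA9, the mitochondrial chaperone that serves the cluster scaffold, was lower at −0.39 (edgeR adjusted p = 5.03e-13), as were the late-acting assembly factors BOLA3 at −0.59 and ISCA1 at −0.48 (edgeR adjusted p = 7.64e-10 and 1.05e-09). Haem genes split too, with 5 higher, 6 lower and 6 not past the test among 17 tested of 18 (median −0.06). PPOX, an oxidase near the end of haem synthesis, was higher at 0.69 and the haem transporter SLC48A1 at 0.57 (edgeR adjusted p = 2.02e-12 and 6.21e-08), while the synthesis enzyme UROD was lower at −0.35 and the haem-binding PGRMC1 at −0.30 (edgeR adjusted p = 1.37e-06 and 3.41e-06). With total-count scaling the splits were 11 higher and 6 lower, and 6 higher and 4 lower, and both medians turned positive (0.07 and 0.06). In that scaling the median of all genes was 0.13, with 5804 higher and 3031 lower of 14618. The authors' deposited DND-41 table lists 2 higher and 8 lower of 29 cluster genes and 3 higher and 6 lower of 17 haem genes. Of all genes it lists 15.2% higher and 21.6% lower.

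Of NRF2, a transcription factor known to act on the ferritin genes, and its targets, which guard against oxidants, 0 were higher, 10 lower and 7 not past the test among 17 tested of 19 in MOLT-4 (median −0.16). PGD of the pentose phosphate pathway was at −0.62, the peroxidase PRDX1 at −0.50, GCLC of glutathione synthesis at −0.66 and the exporter ABCC1 at −0.35 (edgeR adjusted p = 3.85e-19, 2.44e-16, 1.94e-15 and 1.26e-09). Total-count scaling gave 5 higher and 6 lower of the 17 (median −0.04), beside 5804 higher and 3031 lower of all 14618 genes (median 0.13). Ferroptosis genes, which govern iron-dependent lipid peroxidation, had 2 higher, 7 lower and 7 not past the test among 16 tested of 19 (median −0.10), against 5 higher and 5 lower with total-count scaling (median 0.02). SLC3A2, the chain that anchors the cystine importer, was at −0.65, GCH1 of tetrahydrobiopterin synthesis at −0.58 and the mitochondrial channel VDAC2 at −0.25 (edgeR adjusted p = 2.79e-18, 8.14e-11 and 3.70e-06). The authors' deposited DND-41 table lists 0 higher and 13 lower of 16 NRF2 genes, and 2 higher and 10 lower of 16 ferroptosis genes. Over all genes that table lists 15.2% higher and 21.6% lower.

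Genes whose profile over the 8 libraries lay nearest to TFRC and FTH1 were sought among 10449 genes with a mean of at least 5 CPM, by Euclidean distance of log2(CPM + 1) values centred per gene. The libraries share line and replicate number, so the distances describe a common pattern only. Nearest to TFRC were LINC00977 (distance 0.32, r = 0.987), CCDC86 (0.35, r = 0.984) and SCARB1 (0.38, r = 0.983). Nearest to FTH1 were SLC25A38 (0.12, r = 0.994), C19orf10 (0.16, r = 0.988) and EIF6 (0.19, r = 0.991).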

How the data were processed

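What the authors deposited for each line was a table of raw counts for 63677 Ensembl genes and a DESeq2 table. In that DESeq2 table the deposited log2 values are the fold change and its standard error. The deposited DESeq2 tables also hold a p-value with its adjusted p-value, a Wald score and the mean normalised count as a signal, and the last 2 support no result here. Per the submitters' processing notes, the tools were STAR 2.5.2a on hg19, featureCounts, and DESeq2 1.12.4. The strand setting, annotation release and treatment of multi-mapped reads are not given in the sources used here.

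Tests ran over all genes past filterByExpr with edgeR 4.0.16 under R 4.3.3 (2-sided quasi-likelihood F-test on TMM-scaled counts, Benjamini-Hochberg, threshold 0.05). The SE beside an edgeR value is the absolute log2 fold change divided by the square root of the F statistic. It is derived from the test and is not a fitted standard error like that of DESeq2. DESeq2 1.42.0, other scalings and filters, leaving out libraries, a replicate block, and pseudogene counts added were alternatives. The steps were tested on simulated data. CPM used 1 TMM scaling of the 8 libraries, and CPM per kb used exon lengths of GENCODE 29, which also gave the hairpin coordinates (GRCh38, not the build of the counts). The symbol NCOA4 has 2 identifiers, of which the one used holds all its counts.

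The members, lists and tests were chosen with earlier results of these data known. All 10 genes are named, with up to 4 genes per other list by smallest adjusted p in MOLT-4, except 1 that is not reported here. A z test of the difference of the authors' deposited tables was added after the data were examined. Limits of 3 counts cover counting error only.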

Additional observations from a re-analysis of the deposited data

Results flagged for a closer look

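The authors' deposited tables of the lines share no library, and the difference of their log2 fold changes was tested with a z test adjusted by Benjamini-Hochberg over 14053 genes, of which 12.5% passed. TFRC, at −1.20 in the MOLT-4 table and −1.54 in the DND-41 table, differed by 0.34 (SE 0.0896, adjusted p = 0.00189). FTL, at −0.71 in the MOLT-4 table and −1.09 in the DND-41 table, differed by 0.39 (SE 0.132, adjusted p = 0.0319). The DND-41 table is number 2 over number 1, not ACBI-1 over DMSO as labelled, and its direction could not be checked. With its signs turned the differences become −2.74 for TFRC and −1.80 for FTL. SLC11A2, at 0.20 in the MOLT-4 table and −0.16 in the DND-41 table, did not pass (difference 0.36, adjusted p = 0.0531). As labelled, edgeR called no line difference in these genes, in a fit that cannot decide the question.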

How the results depend on the processing

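In MOLT-4, 8 iron genes passed under every alternative run on all libraries except the fit that shares its spread with DND-41. There 0 passed, beside 3.39% of all genes. In the other runs the share of all genes went from 21.8% without a low-count filter to 63.2% with a filter of 1 CPM in 2 libraries. The 8 were not always the same genes: with total-count scaling ACO1 dropped out and FBXL5 entered. In the 4 fits without 1 library TFRC was at −1.21 to −1.15. In DND-41 as labelled, 3 passed with the replicate number as a block (IREB2 higher, FTH1 and FTL lower; 9.24% of all genes) and 5 in the authors' deposited table, which turned TFRC to −1.54, NCOA4 to −0.45, ACO1 to −0.24, SLC11A2 to −0.16, SLC40A1 to −0.10 and IREB2 to −0.094. That table is built on the numbers, not the labels. With the replicate block 8 passed in the line difference (1 higher, 7 lower; 36.5% of all genes) and 9 between the lines with DMSO (73.9% of all genes). Deviations of same-numbered libraries from their group means correlated at 0.838 in DND-41 and 0.0067 in MOLT-4. The numbers pair the libraries by no label, and with 2 pairs per line the block is a hint only. The block changed no call in MOLT-4. Without 1 library each in DND-41, the log2 fold changes ran from −0.92 to 0.98 for TFRC, −0.10 to 0.12 for SLC11A2, −0.54 to 0.22 for FTH1 and −0.75 to 0.51 for FTL. They ran from −0.04 to 0.07 for SLC40A1, −0.12 to 0.15 for ACO1, −0.14 to 0.19 for FBXL5 and −0.21 to 0.25 for NCOA4. In the line difference without 1 library each, values ran from −2.18 to −0.25 for TFRC, −0.98 to −0.20 for FTH1, −1.21 to 0.077 for FTL and −0.13 to 0.18 for FBXL5. Between the lines with DMSO, fits without 1 library each had TFRC at 0.067 to 1.498 and FTH1 at 0.16 to 0.82. With the deposited DND-41 signs turned, the z test passes 8 iron genes and 48% of all genes, against 12.5% unturned, with TFRC at −2.74 and FTL at −1.80. The causes were not tested. Depth limits only HMOX1, with 5 counts in all.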
